A study of Citrus sinensis with 6 samples.

Results

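The WRKY and NAC transcription factor genes of sweet orange were followed through self-pruning of the spring shoot, the process in which the shoot tip stops growing, dies and is shed at an abscission zone (AZ). Members were chosen by gene name, as the names that begin with wrky, nac, nam, no apic or atnac in the annotation of the Affymetrix Citrus Genome GeneChip. Of 30171 citrus probe sets, 23634 of them with a gene name, the rule took 57. These are 13 WRKY probe sets from 13 transcript clusters, 43 NAC probe sets from 39 transcript clusters and 1 probe set named for a NaCl-induced gene (Cit.3751.1.S1_at), which is no NAC gene and was kept out of the family counts. A probe set is a group of short probes that together read 1 transcript or a few similar ones.

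WRKY factors are plant regulators named after the conserved residues of their DNA-binding domain. They bind W-box elements in promoters, act downstream of mitogen-activated protein (MAP) kinase cascades and salicylic acid, and are best known from defence and leaf senescence. NAC factors are named after NAM, ATAF and CUC, carry the NAC DNA-binding domain, and include regulators of organ boundaries, senescence, stress responses, programmed cell death and secondary wall formation. Both families are large, and single members can act in opposite directions.

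Stage 1 was 3 days before self-pruning, stage 2 its beginning and stage 3 a point 7 days after it, and each stage had 2 arrays that the labels call biological replicates, 6 arrays in all. All came from adult, field-grown trees of Citrus sinensis 'Cara Cara' navel orange with no treatment named, and stage 1 serves as the baseline. The study's methods describe the material as shoot tips including the AZ, while the deposited labels call it shoot meristems. The methods speak of 3 groups of 3 trees, but the labels tie no trees to single arrays, so p-values measure the spread between these arrays only. Signals are log2 values made by robust multi-array average (RMA), in which 1 unit is a 2-fold difference. Levels are compared between stages within a probe set and never between probe sets.

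The arrays of a stage were close to each other. Their correlation across probe sets, which do not count as replicates, was 0.9987 to 0.9988 and the SD of their difference 0.125 to 0.130. The highest of 60 reporter control probe sets averaged 5.48, whereas the 23 random-sequence controls had array medians of 7.80 to 7.97, so the background level depends on the control chosen. All 6 arrays were above the highest reporter control in 11 WRKY and 26 NAC probe sets. For 8 NAC probe sets and 0 WRKY probe sets all arrays were under it. The 3′ probe set of actin exceeded its 5′ probe set by 1.87 and 1.94 log2 units at stage 1, 1.89 and 1.93 at stage 2, and 1.62 and 1.66 at stage 3. The same difference for ubiquitin was 0.21 and 0.18 at stage 1, 0.28 and 0.25 at stage 2, and -0.11 and -0.18 at stage 3. These measures of RNA quality thus differed at stage 3, and their part in the results was not tested.

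Changes are limma log2 differences ± standard error (SE), with n = 2 arrays per stage throughout. The words rose and fell are kept for a probe set whose p, adjusted by the Benjamini-Hochberg method over all 30171 probe sets, was under 0.05. Over the 3 stages, all 13 WRKY probe sets and 34 of 43 NAC probe sets changed by the F test, where 71.7% of all citrus probe sets did. Of the 8 NAC probe sets under the highest reporter control, 1 changed, and of the 26 above it on all arrays, 25 did. The mean signal was highest at stage 3 in 7 WRKY probe sets (53.8%) and 28 NAC probe sets (65.1%), beside 37.7% of all citrus probe sets.

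At the beginning of self-pruning, WRKY probe sets moved in both directions and by less than 2-fold. Relative to stage 1, 4 of 13 rose and 5 fell, beside 20.2% rising and 21.5% falling among all citrus probe sets. Their median log2 change was -0.03, against 0.01 over all probe sets. The changes ranged from -0.90 to 0.55, and at an added threshold of 2-fold 0 rose and 0 fell, beside 0.759% and 1.15% of all probe sets. The stage 2 balance of all probe sets depends on scaling, as rises made up 48.4% of calls on the deposited scale and 60.7% after each array was centred on its median. The WRKY counts were 4 and 5 on both scales. The 4 rises became 1 when either stage 1 array was left out and 2 without replicate 2 of stage 2.

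At 7 days after self-pruning, WRKY transcripts were mostly higher. Relative to stage 1, 8 of 13 rose and 3 fell, where 29.9% of all citrus probe sets rose and 35.9% fell. The median log2 change was 0.33, against -0.04 over all probe sets. At least 2-fold rises were seen in 5 WRKY probe sets and an at least 2-fold fall in 1, beside 7.56% and 6.08% of all probe sets. Relative to stage 2, 10 rose and 2 fell, where 29.1% of all rose and 36.5% fell, with a median of 0.44 against -0.05. Of these, 5 rises and 0 falls were at least 2-fold, beside 7.14% and 4.76% of all probe sets. Both stage 3 comparisons use the same stage 3 arrays and are not independent of each other. The families were not tested against the rest of the array.

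**Figure D1:**
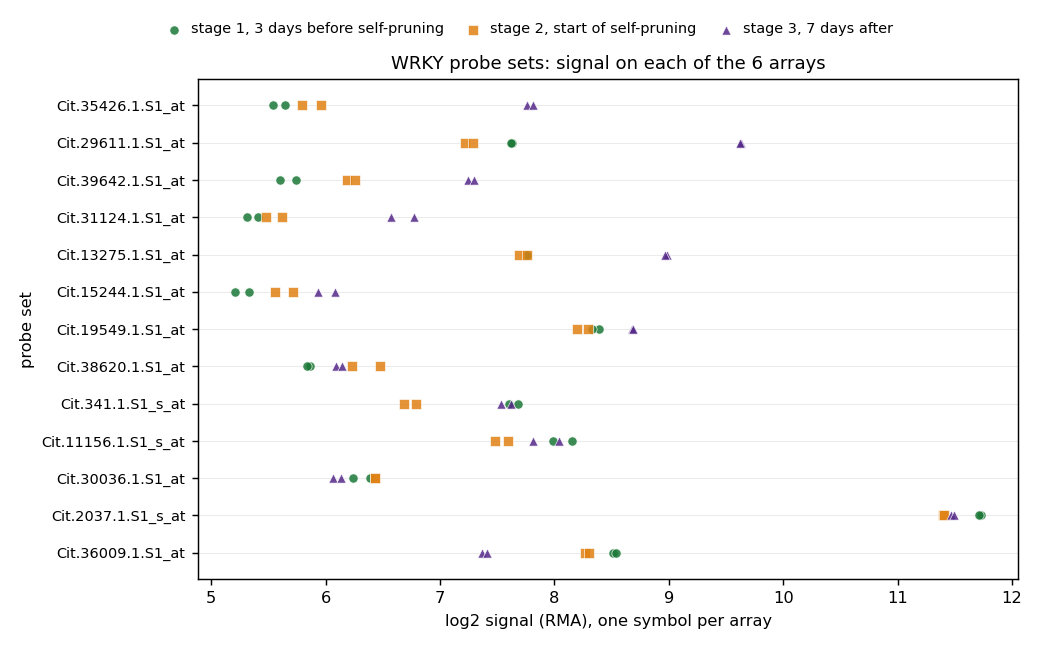
The RMA log2 signal of each WRKY probe set (rows, ordered by the change of stage 3 against stage 1) is plotted along the horizontal axis, with 1 symbol per array, circles for stage 1, squares for stage 2 and triangles for stage 3. In the 5 upper rows the triangles lie at least 1.22 log2 units above the circles on average, and in the lowest row they lie 1.13 below them.

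The largest WRKY rise at stage 3 was in Cit.35426.1.S1_at, which the study's annotation names after WRKY57. In Arabidopsis, WRKY57 takes part in leaf senescence, where jasmonic acid and auxin signals meet. Its signals were 5.54 and 5.64 at stage 1, 5.79 and 5.96 at stage 2, and 7.76 and 7.81 at stage 3. The stages did not overlap, and most of the difference lay between stage 2 and stage 3. The log2 change was 2.20 ± 0.070 at stage 3 relative to stage 1 (4.58-fold, adjusted p = 1.91e-05) and 0.28 ± 0.070 at stage 2 (adjusted p = 0.0329).

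A dip preceded the rise in Cit.29611.1.S1_at, annotated by the study only as a WRKY DNA-binding protein. It read 7.63 and 7.62 at stage 1, 7.22 and 7.29 at stage 2, and 9.63 and 9.62 at stage 3. Both stage 2 arrays were below and both stage 3 arrays above those of stage 1. The change was -0.37 ± 0.032 at stage 2 (adjusted p = 0.0016) and 2.0 ± 0.032 at stage 3, both relative to stage 1 (adjusted p = 4.15e-06). Relative to stage 2, stage 3 was higher by 2.37 ± 0.032, the largest WRKY change between those stages. The study had selected Cit.35426.1.S1_at and Cit.29611.1.S1_at as differentially expressed on these arrays, so that their changes are not independent evidence.

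Further WRKY probe sets rose in steps or only late. Cit.39642.1.S1_at gave signals of 5.60 and 5.74, then 6.19 and 6.26, then 7.24 and 7.30 at stages 1, 2 and 3. It rose at both steps, by 0.55 ± 0.061 at stage 2 relative to stage 1 and by 1.04 ± 0.061 at stage 3 relative to stage 2. Cit.15244.1.S1_at, with 5.21 and 5.33, then 5.56 and 5.71, then 5.93 and 6.08, also rose at both steps, each time by less than 0.40. These are the WRKY genes whose signals ascended from stage to stage with every step past the test, together with Cit.35426.1.S1_at. The smaller steps were uncertain. Without moderation Cit.15244.1.S1_at lost both (adjusted p = 0.0855 and 0.0582), and it lost the first without either stage 1 array or without stage 2 replicate 2 (adjusted p up to 0.116) and the second without stage 2 replicate 1 or stage 3 replicate 2 (0.0682 and 0.0689). The stage 2 rise of Cit.35426.1.S1_at lost its call under 7 alternatives (adjusted p of 0.0642 to 0.135), among them each array left out except stage 2 replicate 1.

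In Cit.13275.1.S1_at and Cit.31124.1.S1_at, the difference was seen at stage 3. Cit.13275.1.S1_at had signals of 7.75 and 7.76 at stage 1, 7.69 and 7.76 at stage 2, and 8.98 and 8.97 at stage 3. Cit.31124.1.S1_at had 5.41 and 5.31 at stage 1, 5.48 and 5.62 at stage 2, and 6.57 and 6.77 at stage 3. Stage 3 exceeded stage 1 by 1.22 ± 0.034 in Cit.13275.1.S1_at and by 1.30 ± 0.090 in Cit.31124.1.S1_at (adjusted p = 1.29e-05 and 2.13e-04). Their stage 2 changes of -0.03 and 0.18 did not pass the test. Cit.19549.1.S1_at, whose protein match is weak (e-value 5e-05), was higher by 0.33 ± 0.043 at stage 3 than at stage 1.

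Falls among WRKY genes were smaller. Cit.36009.1.S1_at read 8.51 and 8.54 at stage 1, 8.27 and 8.30 at stage 2, and 7.37 and 7.41 at stage 3. It fell by 0.24 on the log2 scale at stage 2 (SE 0.030, adjusted p = 0.00463) and by 1.13 at stage 3 (SE 0.030, adjusted p = 1.2e-05), both relative to stage 1, and was the only WRKY probe set to descend at each step. Cit.2037.1.S1_s_at stood at 11.73 and 11.71, then 11.40 and 11.41, then 11.47 and 11.49, so that both later stages were below stage 1 by 0.32 and 0.24. Its rise of 0.08 at stage 3 relative to stage 2 was near the threshold (adjusted p = 0.0498). That call was lost under 9 alternatives, and with median centring the change was 0.03 (limma adjusted p = 0.563). Cit.30036.1.S1_at had 6.24 and 6.39 at stage 1, 6.43 on both arrays at stage 2, and 6.06 and 6.13 at stage 3. Its limma change at stage 3 relative to stage 1 was -0.22 (SE 0.059, adjusted p = 0.0259). That call was lost under 8 alternatives, among them limma without moderation (adjusted p = 0.072).

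A pair of WRKY probe sets was low at stage 2 alone. Cit.341.1.S1_s_at read 7.60 and 7.68 at stage 1, 6.68 and 6.79 at stage 2, and 7.53 and 7.62 at stage 3. Its stage 2 arrays lay below all others, with a change of -0.90 ± 0.061 relative to stage 1 (adjusted p = 9.09e-04), whereas stage 3 overlapped stage 1. Cit.11156.1.S1_s_at followed the same order with a smaller change of -0.53 ± 0.10 at stage 2 (7.48 and 7.59, against 7.99 and 8.15 at stage 1). The stage 3 changes of -0.07 and -0.15 relative to stage 1 did not pass the test. Relative to stage 2, stage 3 was higher by 0.84 in Cit.341.1.S1_s_at and by 0.39 in Cit.11156.1.S1_s_at (limma adjusted p = 2.79e-04 and 0.0253). For Cit.11156.1.S1_s_at that call was lost under 4 alternatives, among them limma without moderation (adjusted p = 0.0802). Cit.38620.1.S1_at, highest at stage 2, read 5.86 and 5.84 at stage 1, 6.23 and 6.47 at stage 2, and 6.09 and 6.14 at stage 3. It rose at stage 2 relative to stage 1 (0.50 ± 0.085, adjusted p = 0.0112). A return at stage 3 was not shown, since the change of -0.23 relative to stage 2 did not pass the test. Relative to stage 1, stage 3 was higher by 0.26 (adjusted p = 0.0478), a call lost under 6 alternatives. The stage 2 call was lost without stage 1 replicate 2 or stage 2 replicate 1 in Cit.11156.1.S1_s_at (adjusted p up to 0.0759) and without either stage 1 array in Cit.38620.1.S1_at (up to 0.0603).

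NAC probe sets were divided at the beginning of self-pruning, with 13 of 43 rising and 10 falling relative to stage 1, beside 20.2% and 21.5% of all citrus probe sets. The median log2 change of 0.02 was close to the 0.01 of all probe sets. The largest NAC changes were falls, and the count of falls was 5 without replicate 1 of stage 2. At the thresholds of the study's methods, which are 4-fold and an unadjusted p no higher than 0.001, 3 NAC probe sets fell and 0 rose, beside 0.361% and 0.0729% of all probe sets. At 2-fold and an adjusted p under 0.05, 4 fell and 2 rose, beside 1.15% and 0.759%.

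At stage 3, 25 of 43 NAC probe sets were higher than at stage 1 and 6 were lower, where 29.9% of all citrus probe sets rose and 35.9% fell. The median log2 change was 0.40, against -0.04 over all probe sets. At least 2-fold, 12 rose and 3 fell, beside 7.56% and 6.08% of all. At the 4-fold threshold 8 rose and 1 fell, beside 2.16% and 1.25% of all probe sets. Relative to stage 2, 27 rose and 4 fell (29.1% and 36.5% of all; 7 fell with the replicate number as a block), the median was 0.34 against -0.05, and 7 rises and 0 falls passed the 4-fold threshold, beside 1.87% and 0.948%. Of the 8 rises against stage 1, several read the same transcript or protein, so that they come from 6 transcript clusters. In these bulk samples, a higher signal from more cells of a type and one from more RNA per cell cannot be told apart.

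**Figure D2:**
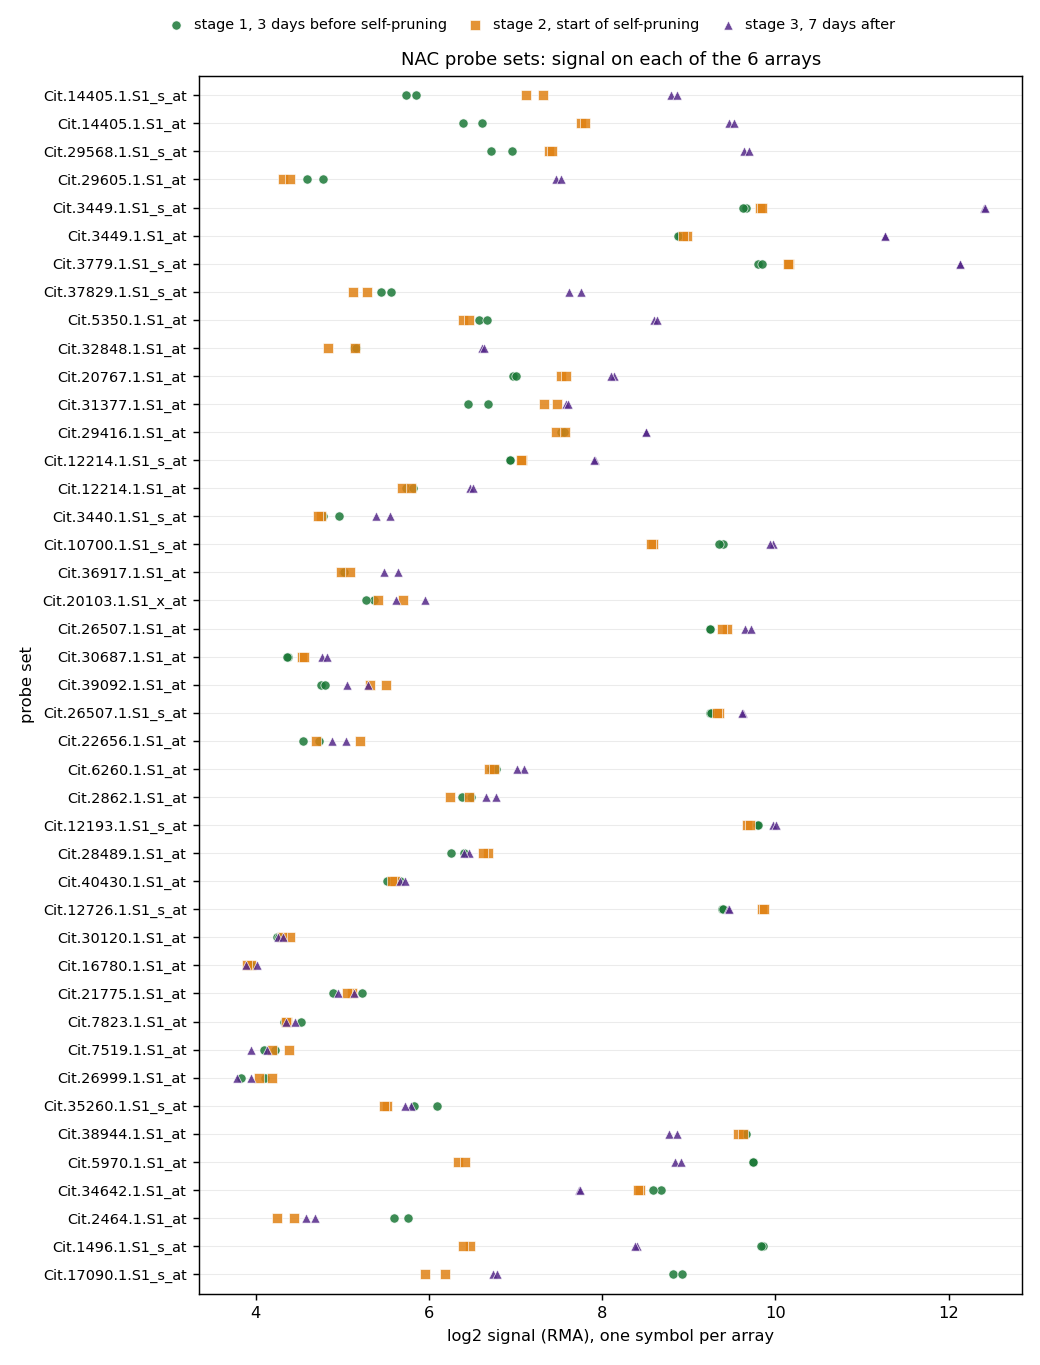
The RMA log2 signal of each NAC probe set (rows, ordered by the change of stage 3 against stage 1) is plotted along the horizontal axis, with 1 symbol per array, circles for stage 1, squares for stage 2 and triangles for stage 3. Triangles stand apart on the right in the top 10 rows, where stage 3 exceeds stage 1 by 1.48 to 3.04, and squares stand apart on the left in Cit.5970.1.S1_at, Cit.1496.1.S1_s_at and Cit.17090.1.S1_s_at.

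The deepest falls at stage 2 were in a few NAC genes with strong signals at stage 1. Cit.1496.1.S1_s_at read 9.86 and 9.83 at stage 1, 6.47 and 6.39 at stage 2, and 8.40 and 8.38 at stage 3. Cit.5970.1.S1_at read 9.74 on both arrays at stage 1, 6.34 and 6.42 at stage 2, and 8.84 and 8.91 at stage 3. In both, stage 2 was lowest and stage 3 lay between the earlier stages without overlap. The change at stage 2 relative to stage 1 was -3.42 ± 0.037 in Cit.1496.1.S1_s_at (10.7-fold lower) and -3.36 ± 0.040 in Cit.5970.1.S1_at (10.3-fold lower), with an adjusted p of 1.6e-05 for each.

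Both genes recovered in part at stage 3. Stage 3 exceeded stage 2 by 1.96 ± 0.037 in Cit.1496.1.S1_s_at and by 2.49 ± 0.040 in Cit.5970.1.S1_at, and remained below stage 1 by 1.45 and 0.87. The match of Cit.1496.1.S1_s_at to its protein is weak (e-value 1e-04), although the study's annotation also calls it a NAC domain protein. The signals at stage 2 lay below the random-sequence controls, so that the sizes of these falls are uncertain.

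Cit.17090.1.S1_s_at, annotated by the study as NAC domain protein NAC2, fell and stayed low. Its signals were 8.82 and 8.92 at stage 1, 5.95 and 6.18 at stage 2, and 6.74 and 6.79 at stage 3. The changes relative to stage 1 were -2.80 ± 0.086 at stage 2 (adjusted p = 1.51e-04) and -2.10 ± 0.086 at stage 3 (adjusted p = 3.81e-05). A probe set of another transcript cluster with the same best match protein, Cit.2464.1.S1_at, read 5.60 and 5.76, then 4.25 and 4.44, then 4.58 and 4.68. It changed by -1.33 ± 0.093 and -1.05 ± 0.093, but its later signals were under the highest reporter control. Cit.10700.1.S1_s_at read 9.39 and 9.35 at stage 1, 8.59 and 8.56 at stage 2, and 9.97 and 9.94 at stage 3, so that it fell by 0.80 at stage 2 and was above stage 1 at stage 3, a change of 0.58 ± 0.030.

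The NAC genes that rose at both steps include the largest rise of the family. Cit.14405.1.S1_s_at read 5.73 and 5.85 at stage 1, 7.12 and 7.32 at stage 2, and 8.80 and 8.86 at stage 3. A second probe set of this transcript, Cit.14405.1.S1_at, read 6.39 and 6.61, then 7.76 and 7.80, then 9.46 and 9.52. Both probe sets ascended in the same order without overlap. At stage 2 they exceeded stage 1 by 1.43 ± 0.083 and 1.28 ± 0.081, and at stage 3 by 3.04 ± 0.083 and 2.99 ± 0.081 (8.20-fold and 7.95-fold). They were the only members to rise at least 2-fold at stage 2.

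Other NAC genes also rose at both steps. Cit.29568.1.S1_s_at had 6.72 and 6.96 at stage 1, 7.39 and 7.42 at stage 2, and 9.64 and 9.69 at stage 3, a change of 2.82 ± 0.086 at stage 3 relative to stage 1 (adjusted p = 1.64e-05). Cit.3779.1.S1_s_at, annotated as membrane bound NAC transcription factor 1, belongs by that name to a group held at membranes until a protease releases it. It read 9.80 and 9.84, then 10.16 and 10.15, and then 12.13 on both arrays of stage 3, a change of 0.34 ± 0.026 at stage 2 and 2.31 ± 0.026 at stage 3. Its protein match on the array is weak (e-value 4e-08). Cit.20767.1.S1_at rose by 0.56 ± 0.036 at stage 2 and by 1.13 ± 0.036 at stage 3, both relative to stage 1.

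In a further group most of the rise came between stage 2 and stage 3. Cit.3449.1.S1_s_at, named by the study after NAC domain-containing protein 2 (ATAF1 in Arabidopsis, which acts in stress responses and leaf senescence), had signals of 9.66 and 9.63 at stage 1, 9.82 and 9.85 at stage 2, and 12.41 and 12.42 at stage 3. Its companion probe set Cit.3449.1.S1_at had 8.90 and 8.87, then 8.98 and 8.93, then 11.27 on both arrays. Stage 3 stood more than 2 log2 units above both earlier stages in each. The change relative to stage 1 was 2.77 ± 0.028 and 2.39 ± 0.031 (adjusted p = 2.15e-06 and 3.05e-06). The adjusted p of 2.15e-06 was the smallest of any member in the 3 comparisons.

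Probe sets named after the NAC protein NAC90 were lowest at stage 2 and rose by stage 3. This protein holds back leaf senescence in Arabidopsis. Cit.29605.1.S1_at read 4.59 and 4.78 at stage 1, 4.31 and 4.39 at stage 2, and 7.47 and 7.52 at stage 3. Cit.37829.1.S1_s_at, which has the same best match protein, read 5.45 and 5.56, then 5.12 and 5.29, then 7.62 and 7.76. In both, stage 3 stood apart above the earlier stages. The stage 2 changes of -0.34 ± 0.075 and -0.30 ± 0.084 passed the test (adjusted p = 0.0247 and 0.0451), with both stage 2 arrays under the highest reporter control, and each lost its call under 7 of the alternatives (adjusted p of 0.0517 to 0.109 for Cit.29605.1.S1_at and 0.0597 to 0.174 for Cit.37829.1.S1_s_at). These include 5 of the 6 fits with an array left out, the exceptions being stage 1 replicate 1 for Cit.29605.1.S1_at and stage 2 replicate 2 for Cit.37829.1.S1_s_at. Relative to stage 2, stage 3 was higher by 3.14 ± 0.075 in Cit.29605.1.S1_at, the largest change of any member in that comparison, and by 2.49 ± 0.084 in Cit.37829.1.S1_s_at.

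Cit.5350.1.S1_at had the same order of stages, with 6.58 and 6.67 at stage 1, 6.39 and 6.46 at stage 2, and 8.60 and 8.63 at stage 3. The stage 2 change of -0.20 ± 0.044 (limma adjusted p = 0.0223) lost its call under 3 alternatives, among them limma without moderation (adjusted p = 0.0585). Its protein match on the array is weak (e-value 2e-08). Cit.32848.1.S1_at, which was chosen after its values were seen, had 5.13 and 5.16 at stage 1, 4.84 and 5.15 at stage 2, and 6.61 and 6.64 at stage 3. Its stage 3 change relative to stage 1 was 1.48 ± 0.11, and its stage 2 change of -0.15 did not pass the test. Of the members described so far, the study had selected 12 NAC probe sets as differentially expressed on these arrays, which include the 8 that rose past 4-fold.

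The NAC falls at stage 3 relative to stage 2, 4 in number or 7 with the replicate number as a block, had different histories. Some followed a rise at stage 2. Cit.12726.1.S1_s_at stood at 9.38 and 9.40 at stage 1, 9.85 and 9.87 at stage 2, and 9.45 and 9.46 at stage 3. Its change was 0.47 ± 0.026 at stage 2 relative to stage 1 and -0.41 ± 0.026 at stage 3 relative to stage 2. Its protein match is weak (e-value 3e-07). Cit.28489.1.S1_at, also with a weak protein match (e-value 8e-04), changed by 0.32 ± 0.058 and -0.21 ± 0.058 in the same comparisons. The call of its later fall was lost under 6 alternatives (adjusted p of 0.0538 to 0.116), among them each stage 2 or stage 3 array left out, and that of its rise without stage 2 replicate 1 (0.0681). Cit.39092.1.S1_at (5.32 and 5.50 at stage 2, against 4.75 and 4.80 at stage 1) and Cit.31377.1.S1_at (7.33 and 7.48 at stage 2, against 6.45 and 6.68 at stage 1) rose at stage 2 by 0.63 ± 0.11 and 0.84 ± 0.092, and their changes of -0.23 and 0.19 at stage 3 relative to stage 2 did not pass the test. The rise of Cit.39092.1.S1_at lost its call without either stage 1 array (adjusted p = 0.0508 and 0.0603).

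Falls mainly in the later interval were seen in a pair of NAC probe sets with the same best match protein. Cit.34642.1.S1_at read 8.68 and 8.59 at stage 1, 8.44 and 8.41 at stage 2, and 7.73 and 7.74 at stage 3. Cit.38944.1.S1_at read 9.63 and 9.66 at stage 1, 9.57 and 9.63 at stage 2, and 8.77 and 8.86 at stage 3. Relative to stage 2 they fell by 0.69 (SE 0.039) and 0.78 (SE 0.046), the largest NAC falls in that comparison. At stage 2, Cit.34642.1.S1_at was lower than at stage 1 by 0.21 (adjusted p = 0.0145), a call that was lost when arrays were centred on their medians (adjusted p = 0.0911) and without either stage 2 array (0.0544 and 0.0717).

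The other 21 NAC probe sets, left after the largest changes had been described singly, changed less. At stage 3 relative to stage 1, 11 were past the threshold upwards and 0 downwards, beside 29.9% and 35.9% of all probe sets, which leaves 10 without a call, and log2 changes lay between -0.21 and 0.97. Relative to stage 2, 11 rose and 0 fell at stage 3, beside 29.1% and 36.5%, with changes between -0.25 and 0.98. All 6 NAC falls at stage 3 relative to stage 1 and all 4 relative to stage 2 are among the probe sets described singly. The 0 falls here follow from that choice and are not a result about these 21. At stage 2 relative to stage 1, 3 rose and 1 fell, beside 20.2% and 21.5%, with changes between -0.46 and 0.31.

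**Figure D3:**
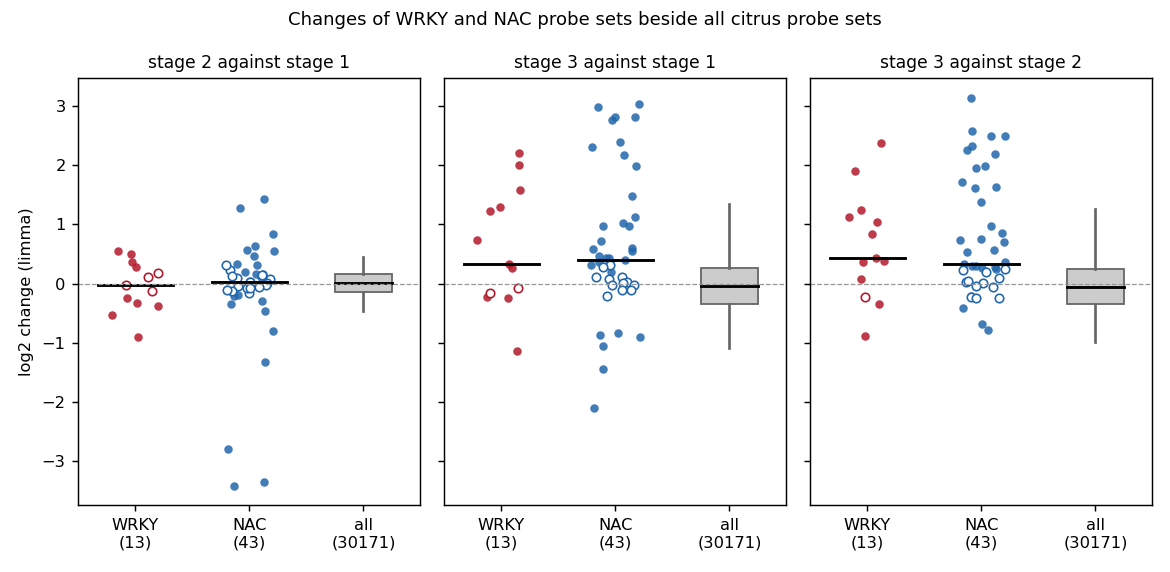
The log2 change (vertical axis) of each WRKY and NAC probe set is plotted for the 3 comparisons, with filled points for an adjusted p under 0.05, open points for the rest, and black lines for medians. The grey box gives the middle 50% of all 30171 citrus probe sets and its whiskers run from the 5th to the 95th percentile. The medians of both families lie near 0 at stage 2 and between 0.33 and 0.44 in the stage 3 comparisons, while those of all probe sets lie between -0.05 and 0.01.

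The sequences behind the probe sets overlap in part. In 13 groups, 30 members in all, probe sets shared the best match protein, and 12 of these groups hold more than 1 transcript cluster. Where 2 member probe sets read the same transcript, their log2 changes differed by at most 0.38. Where different transcripts had the same best match, some went together and some did not. Cit.13275.1.S1_at changed by 1.22 at stage 3 relative to stage 1 and Cit.2037.1.S1_s_at, with the same match, by -0.24. Cit.10700.1.S1_s_at and Cit.29568.1.S1_s_at, which also share a match, changed by -0.80 and 0.57 at stage 2. Cit.28489.1.S1_at shares its match with the Cit.14405 and Cit.3779 probe sets but changed by only 0.11 at stage 3, with a change that did not pass the test. Its own match to that protein is weak (e-value 8e-04). Probe sets of the type marked s_at, which can read several similar transcripts, number 3 in the WRKY family and 14 in the NAC family. The array design marks 6 NAC probe sets as reversed in orientation, among them Cit.28489.1.S1_at and both of Cit.26507, and which strand they read was not established here.

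**Figure D4:**
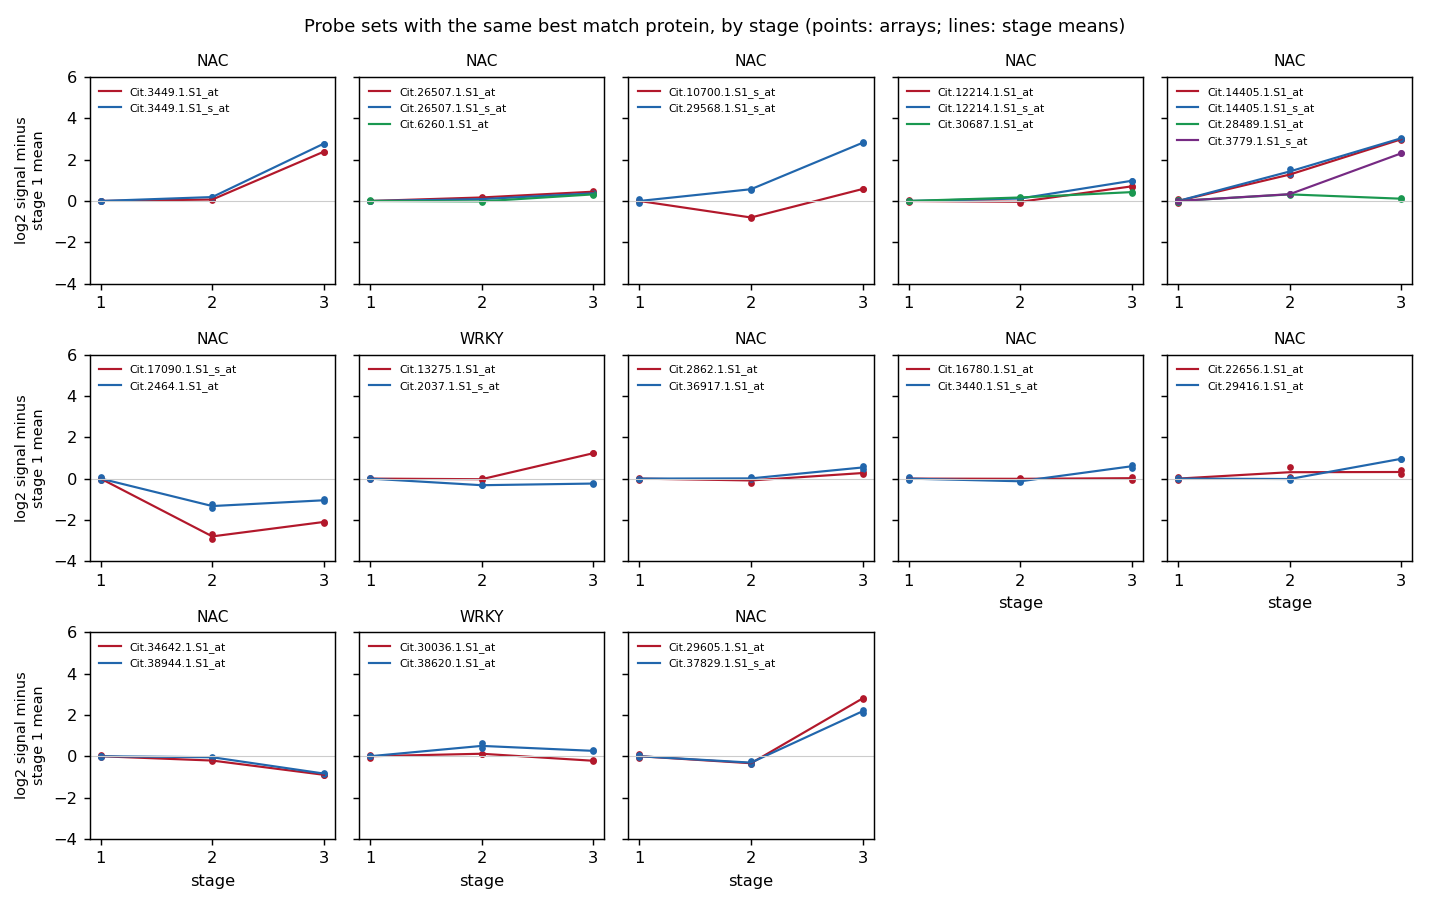
Each panel shows probe sets with the same best match protein, as log2 signal minus their own stage 1 mean (vertical axis) by stage (horizontal axis), with points for arrays and lines through stage means. Lines stay together for the Cit.3449 and Cit.29605 groups and part by stage 3 for Cit.13275.1.S1_at (1.22) and Cit.2037.1.S1_s_at (-0.24).

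Array gene names are cut short (median length 7 letters), and the rule misses WRKY and NAC genes whose shortened name begins otherwise. The study's own annotation of its differentially expressed genes gives 11 such probe sets. Because the study picked them for their change on these arrays, their values are a description. Among WRKY genes, Cit.6048.1.S1_s_at and Cit.7937.1.S1_at are named after WRKY70, a salicylic acid-responsive factor that restrains senescence in Arabidopsis. Cit.6048.1.S1_s_at read 8.41 and 8.45 at stage 1, 8.78 and 8.74 at stage 2, and 12.04 on both arrays at stage 3. Cit.12779.1.S1_at, named after WRKY41, read 7.74 and 7.72, then 8.49 and 8.52, then 11.12 and 11.14. Relative to stage 1, the stage 3 log2 changes of Cit.6048.1.S1_s_at and Cit.12779.1.S1_at were 3.61 and 3.40, beyond any WRKY member of the name rule. Cit.7937.1.S1_at changed by 2.09, less than the largest WRKY rise within the rule (2.20).

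Cit.13519.1.S1_at differed in time from these, with 6.81 and 6.87 at stage 1, 8.71 and 8.70 at stage 2, and 8.98 and 8.97 at stage 3. Its change at stage 2 was 1.87, where the largest WRKY rise within the name rule was 0.55. Cit.3757.1.S1_at dipped at stage 2, with 8.31 and 8.28 at stage 1, 7.63 and 7.73 at stage 2, and 10.58 on both arrays at stage 3.

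Among NAC genes outside the rule, Cit.14763.1.S1_at read 4.49 and 4.81 at stage 1, 5.13 and 5.29 at stage 2, and 8.95 and 9.01 at stage 3. Cit.7942.1.S1_at, named after NAC domain-containing protein 43 (NST1 in Arabidopsis, a switch of secondary wall formation in fibres), read 3.93 and 3.87 at stage 1, 4.0 and 3.92 at stage 2, and 6.07 and 5.86 at stage 3. The deepest NAC falls at stage 2 also lay outside the rule. Cit.10152.1.S1_s_at, annotated as NAC4 but with a weak protein match on the array (e-value 9e-04), read 9.10 and 9.16 at stage 1, 4.35 and 4.34 at stage 2, and 5.91 and 6.11 at stage 3. Cit.22463.1.S1_s_at, also annotated as NAC4, had 9.71 and 9.69 at stage 1, 5.13 and 5.20 at stage 2, and 7.0 and 6.96 at stage 3. Cit.1497.1.S1_s_at had 10.74 and 10.79 at stage 1, 6.57 and 6.74 at stage 2, and 9.39 on both arrays at stage 3. The stage 2 signals of Cit.10152.1.S1_s_at and Cit.22463.1.S1_s_at were under the highest reporter control. All of these had the order of Cit.1496.1.S1_s_at and Cit.5970.1.S1_at, lowest at stage 2 and partly restored at stage 3.

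Genes that act with WRKY factors were counted in the same way, against the 29.9% of all probe sets that rose and 35.9% that fell at stage 3 relative to stage 1 (median -0.04), and the 20.2% and 21.5% at stage 2 (median 0.01). MAP kinases phosphorylate some WRKY factors, and VQ motif proteins bind them. Probe sets named for the MAP kinase cascade or for VQ motif proteins numbered 25. Their shortened names do not tell MAP kinases from the kinases above them or from phosphatases. At stage 3, 16 of them (64.0%) were higher than at stage 1 and 4 (16.0%) lower (median 0.41), and at stage 2, 12 (48.0%) were higher and 5 lower (median 0.18). The VQ motif probe set Cit.2670.1.S1_s_at changed by -0.49 at stage 2 and by 0.60 at stage 3, both past the test. A MAP kinase-family probe set, Cit.30629.1.S1_at, changed by 2.46 at stage 3. Among salicylic acid and pathogenesis-related genes, 4 of 17 (23.5%) rose and 10 (58.8%) fell at stage 3 relative to stage 1 (median -0.25). Of these, Cit.29252.1.S1_s_at, named after EDS1, a hub of salicylic acid-dependent immunity, rose by 1.31, whereas Cit.31251.1.S1_at, named after the salicylic acid receptor NPR1, changed by -0.97. Another EDS1-named probe set, Cit.25968.1.S1_at, changed by 0.23 and did not pass the test. The extremes of the list were pathogenesis-named, with 3.25 in Cit.31825.1.S1_at and -3.91 in Cit.21717.1.S1_at. Names cut to that word do not establish salicylic acid genes.

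Groups chosen as settings of NAC action were counted as well. Of 31 probe sets listed for senescence and cell death, 11 (35.5%) rose and 11 fell at stage 3 relative to stage 1 (median -0.04), close to the 29.9% and 35.9% of all, and 11 rose and 9 (29.0%) fell at stage 2 (median 0.05), beside 20.2% and 21.5%. Their array names are cut short, and many are only endonuclease beginnings, so they do not establish a role in senescence or cell death. Several of the endonuclease-named ones read 1 transcript cluster (Cit.6191), and 4 of the 31 were under the highest reporter control on all arrays. Senescence-named probe sets went both ways at stage 3, with 1.90 in Cit.12962.1.S1_at and -1.43 in Cit.21258.1.S1_at, both past the test. The endonuclease-named Cit.28597.1.S1_s_at changed by -1.42. Cit.40325.1.S1_s_at, named after chlorophyllase, an enzyme of chlorophyll breakdown, changed by -1.07. Of 16 probe sets listed for the secondary wall, 5 (31.2%) rose and 4 fell at stage 3 (median -0.07). On all arrays, 8 of the 16 were under the highest reporter control, so the median says little about them. Their array names are cut to laccase, cellulose synthase or cinnamyl alcohol dehydrogenase beginnings, so they do not establish a role in the secondary wall. The laccase-named members did not move together. Relative to stage 1, Cit.15075.1.S1_at rose by 3.44 at stage 3, whereas Cit.2409.1.S1_s_at changed by -6.90 at stage 2 and -2.11 at stage 3 (adjusted p = 1.07e-05 and 1.1e-05). Its signals were 11.64 and 11.62 at stage 1, 4.81 and 4.67 at stage 2, and 9.54 and 9.5 at stage 3, so that stage 2 was under the highest reporter control. The cellulose synthase-named Cit.37298.1.S1_at changed by -2.65 at stage 3.

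Markers of cell types that a shoot tip holds were counted against the same 29.9% rising and 35.9% falling at stage 3 relative to stage 1. Of 9 xylem and fibre probe sets, 6 (66.7%) were higher and 1 (11.1%) lower, and their summed signal, as log2, was 12.72 and 12.71 at stage 1, 12.05 and 12.09 at stage 2, and 13.20 on both arrays at stage 3. The array names of these 9 are cut to laccase or fasciclin beginnings, so they do not establish xylem or fibre cells. They include the laccases also counted under the secondary wall. The lower sum at stage 2 rests on Cit.2409.1.S1_s_at, since without it the sum was 11.80 on both arrays at stage 1, 12.04 and 12.08 at stage 2, and 13.08 on both at stage 3. At stage 2, 4 of the 9 rose and 2 fell (median 0.17), beside 20.2% and 21.5% of all. Of 10 photosynthetic leaf markers, 5 rose and 0 fell at stage 2 relative to stage 1, and 0 rose and 6 (60.0%) fell at stage 3 relative to stage 1. Their summed signal was 15.93 and 15.89 at stage 1, 16.06 and 16.05 at stage 2, and 15.79 and 15.78 at stage 3. Of 11 markers of the meristem and leaf primordia, 5 (45.5%) rose and 4 (36.4%) fell at stage 3 relative to stage 1, with a summed signal of 12.99 and 13.02 at stage 1, 12.94 and 12.96 at stage 2, and 12.40 and 12.42 at stage 3. Of 5 epidermis markers, 2 rose and 1 fell, with sums of 11.08 and 11.04 at stage 1, 10.90 and 10.86 at stage 2, and 11.33 and 11.32 at stage 3. These calls include 2 probe sets of 1 transcript cluster that went opposite ways. At stage 3 relative to stage 1, Cit.25712.1.S1_s_at changed by 0.35 and Cit.25712.1.S1_at by -0.47, both past the test. Under the highest reporter control on all arrays were 2 xylem, 3 photosynthetic, 2 meristem and 2 epidermis markers. Among the meristem markers, Cit.16313.1.S1_at, named after SHOOTMERISTEMLESS, changed by -0.62 at stage 2 and 0.99 at stage 3, and the YABBY-named Cit.6654.1.S1_at by -0.41 and -3.32 (adjusted p of at most 0.00626 for each). The part of the cell makeup in the WRKY and NAC results was not tested.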

How the data were processed

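RNA of shoot tips from 3 stages was hybridised to 6 Affymetrix Citrus Genome GeneChips. The deposited log2 signals are the authors' RMA values from Expression Console, with Microarray Suite also mentioned in their methods. A second deposited table gives log2 stage means, used only for names, and the authors' own p-values, ratios, fold changes and F statistics, which were not used. Members were chosen from the gene names of that table. The members and lists were chosen with earlier results of these data known. Related genes and cell type markers were taken by the beginnings of the shortened array names, since the full names planned do not occur there.

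A linear model of the 3 stages, without covariates, was fitted to 30171 citrus probe sets on all 6 arrays (limma 3.58.1 under R 4.3.3, with moderated variances), and 224 other probe sets were left out. Calls were made at a Benjamini-Hochberg adjusted p under 0.05 over all citrus probe sets. limma replaced the SAM of the study's methods, which has few relabellings with 2 arrays per stage. The scripts were tested on simulated data. Probe sets named in the text are, per family and comparison, the 5 largest rises and 5 largest falls past the test without overlap between arrays, 1 per transcript cluster, with the probe sets of the study's list of differentially expressed genes and the other probe sets of a named cluster. Probe sets outside the rule, members of the related lists, Cit.19549.1.S1_at and Cit.32848.1.S1_at were named after their values were seen. Arrays give no read depth, and their number limits the precision. The alternatives were median centring, quantile normalization, limma without moderation or with a trend, the replicate number as a block, only the 4 arrays compared, filters on signal, controls kept, other thresholds, unshared probe sets, 1 probe set per cluster, each array left out in turn and, chosen after seeing the data, a wider membership. Python 3.11.15 with pandas 2.3.3 and matplotlib 3.10.9 made the tables and figures. Probe sets were not placed on a genome, and no sequences are printed.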

Additional observations from a re-analysis of the deposited data

How the results depend on the processing

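Of the 87 changes of named probe sets that passed the test, each recomputed under up to 14 alternatives, 0 reversed, 1113 values kept direction and side of the threshold and 87 lost the call. With a replicate block, 1 named change lost its call (Cit.2037.1.S1_s_at, stage 3 against stage 2, adjusted p = 0.0519) and the NAC falls at stage 3 against stage 2 numbered 7 in place of 4. The block changed no other count by over 1.5 times. Deviations of the arrays numbered 1 from their stage means correlated at 0.561, 0.475 and 0.463 between stages, but with 2 pairs per comparison the number was not taken to pair samples. Without moderation, WRKY rises at stage 2 against stage 1 numbered 2 and NAC falls 6.

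At an adjusted p under 0.01, stage 2 against stage 1 gave 1 WRKY rise, 8 NAC rises and 5 NAC falls. With at least 2-fold added, WRKY rises and falls were 0 and 0 (stage 2 against stage 1), 5 and 1 (3 against 1) and 5 and 0 (3 against 2), and NAC ones 2 and 4, 12 and 3, and 13 and 0. Under the study's thresholds of 4-fold and p 0.001 they were 0 and 0, 2 and 0, and 1 and 0 for WRKY, and 0 and 3, 8 and 1, and 7 and 0 for NAC. With unshared probe sets only, which leaves 10 WRKY and 28 NAC probe sets, WRKY falls at stage 2 against stage 1 were 2, NAC rises and falls there 7 and 5, NAC rises 14 (3 against 1) and 15 (3 against 2), and NAC probe sets with any change 20. These lower counts come with fewer probe sets or a stricter threshold.

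When each array was left out in turn, WRKY rises at stage 2 against stage 1 ranged from 1 to 4 and WRKY falls from 4 to 5. They were 1 without stage 1 replicate 1 or without stage 1 replicate 2, and 2 without stage 2 replicate 2. NAC rises there ranged from 9 to 13 and falls from 5 to 9, with 5 without stage 2 replicate 1. At stage 3 against stage 1, WRKY rises were 7 to 8 and falls 2 to 3, NAC rises 23 to 26 and falls 6 to 7. At stage 3 against stage 2, WRKY rises were 7 to 9 and falls 2 to 3, NAC rises 25 to 27 and falls 3 to 4. Any change was called in 11 to 13 WRKY and 32 to 33 NAC probe sets. A stage left with 1 array is assumed to vary like the others. The cause of these changes in count was not tested. Wider membership gave 18 WRKY and 44 NAC probe sets. With 2 arrays per stage and signals near the controls, small changes are the least certain.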

Other observations

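A few probe sets close to the families were not part of the counts. The NaCl-induced Cit.3751.1.S1_at, caught by the name rule, read 10.59 and 10.61 at stage 1, 10.15 and 10.18 at stage 2, and 11.06 on both arrays at stage 3. It was lower at stage 2 by 0.43 and higher at stage 3 by 0.46 than at stage 1 (limma adjusted p = 7.66e-04 and 1.27e-04). Cit.1613.1.S1_s_at, which has the same best match protein as a NAC member, rose at both steps, with 10.94 and 10.89, then 11.15 and 11.12, then 11.37 and 11.35. The WRKY-named Cit.37454.1.S1_at rose by 0.33 ± 0.054 at stage 2 relative to stage 1, at signals under the highest reporter control. The other two WRKY-named probe sets whose array name begins with another word, Cit.33078.1.S1_at and Cit.33300.1.S1_at, read between 3.73 and 4.64 on all arrays and passed no test.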
